A study of Mus musculus with 7 samples.

Results

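The gap between the coding genes *Sash1* and *Samd5* on mouse chromosome 10 held 110 of the 1489 *Tbx5*-dependent noncoding RNA (ncRNA) loci in the deposited list (7.39%). Members were all listed loci that started above position 8886070 and ended below 9622936 in mm10, which are the facing edges of the 2 genes in GENCODE release M21. RefSeq draws both genes longer, and 59 of the 110 loci lie between its outlines. The call of *Tbx5* dependence came from the authors' own test of knockout against control. A locus entered the list by that call and by filters on its distance from coding start sites and from *Tbx5*-dependent coding genes. The loci were thus chosen by that call, those filters and position, and the values given here describe them with no test. The list gave no level per library, so neither the size of any change nor its spread between animals was analysed for these loci. The direction of change was left unassigned. The row count of the table and a word in the sheet name pointed to a rise in the knockout, while a number in that name and a column heading pointed to a fall.

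The libraries came from the left atrium of male mice of mixed strain, 6 to 8 weeks old. The 3 control libraries were from mice with R26CreERt2 and no floxed *Tbx5*. In this allele the Rosa26 promoter, active in nearly all cell types, makes a Cre that works once tamoxifen is given. The 4 *Tbx5* knockout libraries (TBX5 -/- in the labels) were from *Tbx5* fl/fl;R26CreERt2 mice. The study's methods describe tamoxifen dosing a week before collection, so *Tbx5* was deleted in adult tissue and in every cell type that responded to the drug, and both groups carried the Cre. Total RNA was depleted of ribosomal and of polyadenylated RNA and sequenced as directional single-end reads of 50 bp, which gives each locus a strand. Neither the loss of *Tbx5* nor atrial marker genes could be checked from a list of loci.

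TBX5 is a T-box transcription factor required for heart development and for atrial rhythm in the adult. Active enhancers are transcribed into ncRNAs that mostly lack a poly(A) tail, and RNA that is still being made or that runs past the end of a gene is also found in the fraction depleted of polyadenylated RNA. *Sash1* encodes a scaffold protein with SAM and SH3 domains that has been studied in signalling downstream of Toll-like receptors and as a tumour suppressor. *Samd5* encodes a small protein with a SAM domain, a module through which proteins bind one another. Both genes are read from the minus strand, so transcription that leaves the 3' end of *Samd5* runs through the gap toward the 5' end of *Sash1*. The loci were assembled de novo, and an assembler of this kind opens a new locus where reads no longer reach each other. Loci set apart by a short space can therefore stem from 1 RNA or from several, which cannot be told apart here.

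3 stretches of the domain show what a listed locus, the space between neighbours and an unlisted annotated gene look like in sequence. All are on the minus strand of GRCm38, the assembly of the mm10 positions, are written 5' to 3' and were taken from GENCODE M21 transcripts with a single exon. The first spans chr10:9070729-9070899 within *Gm48743* and shows the 51 bases that separated XLOC_005169 from XLOC_005168 in capitals, with 60 bases of each locus around them. The second, chr10:9487003-9487202, is the upstream end of *Gm48751*, which lay wholly inside XLOC_005309, the only locus that the table itself tied to an annotated gene. The third, chr10:9535482-9535681, is the upstream end of *Gm9930*, which the table named as a neighbour of every locus in the gap but which none of them touched.
Space between XLOC_005169 and XLOC_005168: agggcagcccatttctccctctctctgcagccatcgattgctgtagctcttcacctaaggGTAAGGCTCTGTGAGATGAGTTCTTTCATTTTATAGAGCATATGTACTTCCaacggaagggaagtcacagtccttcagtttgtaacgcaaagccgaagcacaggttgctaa
*Gm48751* in XLOC_005309: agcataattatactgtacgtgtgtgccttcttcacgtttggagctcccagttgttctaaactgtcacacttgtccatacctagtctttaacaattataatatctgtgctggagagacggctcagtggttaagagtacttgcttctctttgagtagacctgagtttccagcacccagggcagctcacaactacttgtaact
*Gm9930*, in no listed locus: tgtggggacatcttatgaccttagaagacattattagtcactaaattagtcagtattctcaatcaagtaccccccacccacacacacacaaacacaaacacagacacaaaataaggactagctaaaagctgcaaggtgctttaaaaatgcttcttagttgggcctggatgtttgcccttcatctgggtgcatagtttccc
GC bases made up 37.3% of the 51 capitals, 47.4% of the first window as a whole and 42.4% of the *Gm48743* transcript. They made up 42.0% of the *Gm48751* transcript and 41.3% of the *Gm9930* transcript, so the covered gene and the uncovered gene were close in base composition. No genome sequence was used, so the composition of the other loci and spaces was not analysed.

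Between the GENCODE edges, the loci filled most of the gap from a single strand. All 110 lay on the minus strand, while 646 of the 1379 other listed loci did (46.8%), and so did 25 of the 49 others on chromosome 10. Together they covered 453.0 kb of the 736.9 kb gap (61.5%) without a single overlap. The lowest locus, XLOC_005052, was 221 bp long at 8888024 to 8888244 and ended the domain 1954 bp before the 5' end of *Sash1*. The highest, XLOC_005321, was 19689 bp long at 9595599 to 9615287 and began 7649 bp past the 3' end of *Samd5*. No other listed locus lay near either edge. The closest was 3.59 Mb away on the *Sash1* side and 3.88 Mb away on the *Samd5* side, so moving the bounds outward by less than that would have added no locus.

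**Figure D1:**
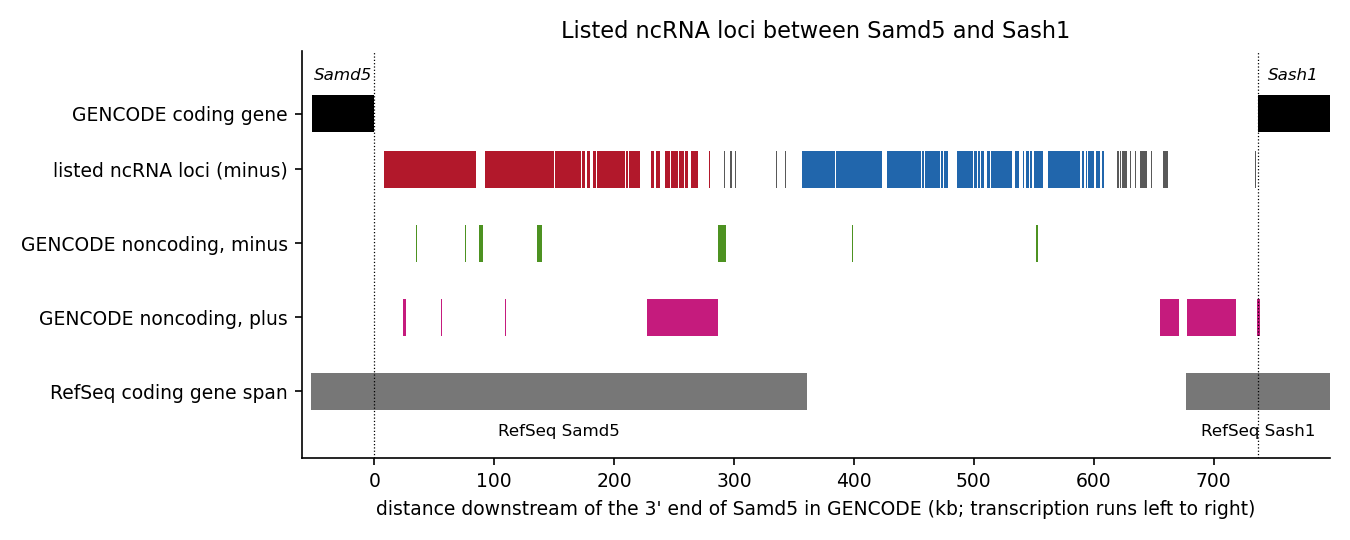
Map of the gap in the direction of transcription, from the 3' end of *Samd5* at 0 kb to the 5' end of *Sash1*, with *Sash1* cut off at the right edge of the plot. Listed loci are drawn by run (red, 43 loci; blue, 49 loci; grey, the 5 shorter runs), above GENCODE noncoding genes of each strand and the RefSeq spans of the 2 coding genes. The red and blue runs are separated by a stretch with few loci, which ends close to the downstream end of the RefSeq span of *Samd5*.

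When loci up to 10 kb apart were joined, the gap held 7 runs, nearly all of the covered length fell into 2 long ones, and a sparse stretch lay between them. Together the runs of 43 and 49 loci held 433.7 of the 453.0 kb (95.7%). The run nearest to *Samd5* spanned 272.0 kb, from 9343274 to 9615287, and its 43 loci covered 83.2% of it. The other long run spanned 252.0 kb, from 9014497 to 9266459, began 356.5 kb downstream of the 3' end of *Samd5*, and had 82.3% of its bases in its 49 loci. The 2 runs were thus of like length and like density. They rest on the joining distance: the run of 49 held a space of 7351 bp and the run of 43 one of 9118 bp. Joined at 5 kb, the gap gave 13 runs, and the 4 with 10 or more loci (32, 17, 13 and 25 loci) held 78.8% of the covered length. Joined at 50 kb, 109 loci formed 1 run. Between them lay a run of 4 loci (9321876 to 9331423) and a run of 2 loci (9280470 to 9287939), in which 7.59% and 5.50% of the span was covered. Beyond the run of 49 loci, toward *Sash1*, came a run of 9 loci with 48.5% of its span covered (8974864 to 9003618), a pair of loci (8960621 to 8964746) and XLOC_005052 alone. Short loci gathered in these thin stretches: 9 of the 18 loci outside the long runs were under 500 bp, as were 7 of the 92 loci inside them.

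In bins of 50 kb from the 3' end of *Samd5*, coverage was high over most of each long run. It was low in the bins that held the downstream end of a run or lay beyond it. Coverage was 84.6%, 83.1%, 99.2% and 88.1% in the first 4 bins, then 64.3%, 34.5% and 1.37%. It rose again to 85.2% and 89.9% in the next 2 bins, passed through 79.9%, 70.8% and 78.2%, and fell to 38.4%, 7.97% and 0.599% toward *Sash1*. The number of loci per bin was lowest near the upstream end of each long run. The first bin held 2 loci and the fifth 14. The eighth bin held 4 and the twelfth 15. Coverage and the number of loci were both lower in the bin that held the downstream end of a long run than in the bin before it. They went from 64.3% and 14 loci in the fifth bin to 34.5% and 13 in the sixth. From the twelfth bin to the one after it, they went from 78.2% and 15 loci to 38.4% and 11. The sixth bin and the one after the twelfth each reached past the long run and also held loci of a shorter run. These counts therefore do not show how the number of loci changed within a long run.

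**Figure D2:**
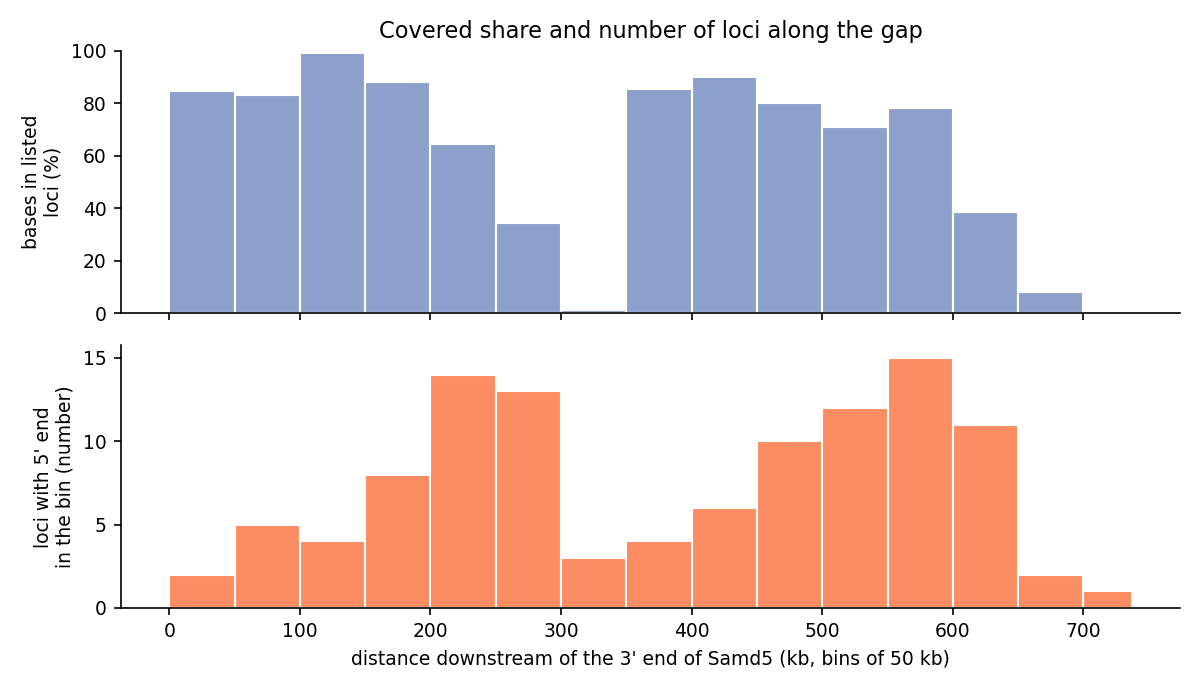
Share of bases inside listed loci (upper bars, percent) and number of loci whose 5' end fell in the bin (lower bars) in bins of 50 kb downstream of the 3' end of *Samd5*; the last bin is shorter because the gap ends there. Coverage was highest at 99.2% in the third bin and lowest at 0.599% in the last, while the most loci, 15, fell in the twelfth.

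The loci of the gap were long for this list. Their median length was 2030.5 bp (95% order-statistic interval 1576 to 2438, n = 110) with quartiles of 1102 and 4018 bp, against a median of 181 bp (168 to 193, n = 1379) for the loci elsewhere. These intervals take the loci as independent, which neighbours in 1 domain are not. Of the 110, 88 (80.0%) were at least 1 kb long, compared with 290 of 1379 elsewhere (21.0%). At 5 kb or more there were 21 (19.1%) and 99 (7.18%). The gap held 13 of the 65 loci in the list that reached 10 kb. A small number of loci carried most of the covered bases: the 5 longest made up 27.6% of them and 12 loci made up 50%.

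4 of the 5 longest loci lay in the run nearest to *Samd5*. XLOC_005320 was the longest, with 32541 bp at 9563007 to 9595547. Upstream of it was XLOC_005321, and 94 bp downstream followed XLOC_005319 with 24416 bp at 9538497 to 9562912. XLOC_005311 was 23671 bp long, at 9495102 to 9518772, and XLOC_005309 was 20879 bp long, at 9472750 to 9493628. The fifth, XLOC_005220, was 23511 bp long at 9238400 to 9261910 and was the second locus from the upstream end of the run of 49. The shortest loci did not mark the edges of the domain. XLOC_005213 (98 bp, 9196452 to 9196549) and XLOC_005298 (109 bp, 9422352 to 9422460) lay inside the long runs, and XLOC_005237 (102 bp, 9326007 to 9326108) lay in the sparse stretch.

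Within both long runs, as joined at 10 kb, the median length fell and the number of loci rose in the direction of transcription. Each run was divided into 3 equal stretches of its span, about 84.0 kb in the run of 49 loci and 90.7 kb in the run of 43. In the run of 49, the stretches held 9, 18 and 22 loci from upstream to downstream, with median lengths of 6510, 2940.5 and 1575.5 bp and covered shares of 93.1%, 82.9% and 70.8%. In the run of 43, they held 7, 12 and 24 loci, with median lengths of 6190, 2511.5 and 1705 bp and covered shares of 90.6%, 93.0% and 66.1%. The upstream stretch of each run thus had the fewest loci and the highest median length, and the downstream stretch the most loci and the lowest median. The order was loose for single loci: Spearman's rho of length with distance downstream was -0.37 in both runs (n = 49 and n = 43). It depended on how loci were joined: in the 4 larger runs at 5 kb it was -0.25 (n = 32), -0.31 (n = 17), 0.13 (n = 13) and -0.048 (n = 25) from the *Sash1* side to the *Samd5* side. Loci of a run share their strand and their libraries, and where one ends limits where the next can start, so these values are a description only.

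**Figure D3:**
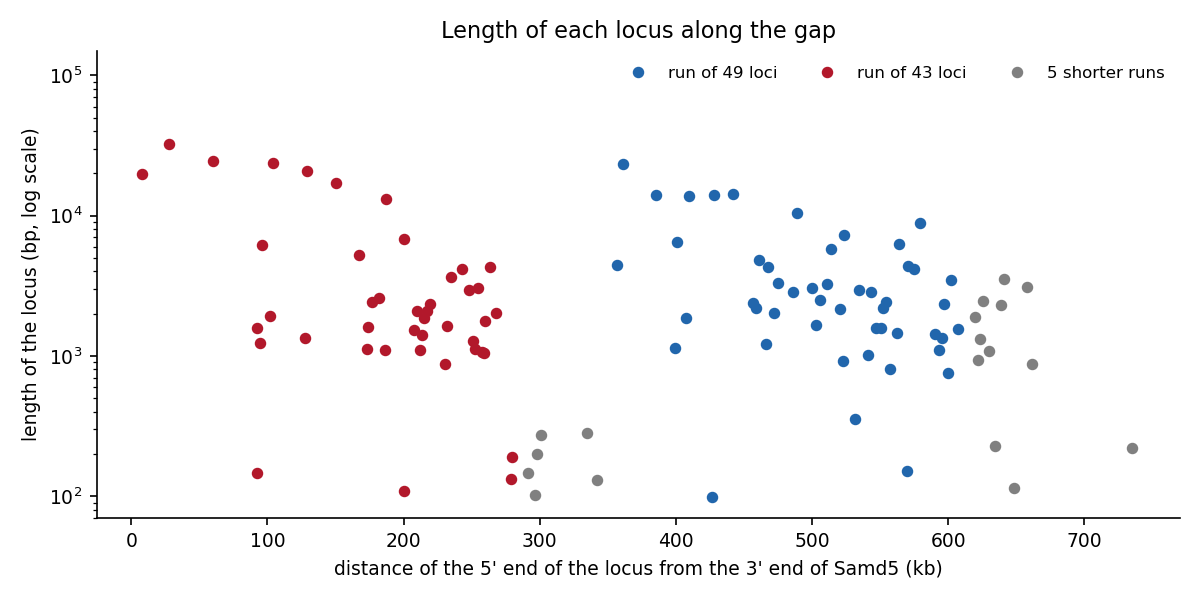
Length of each of the 110 loci (bp, log scale) against the distance of its 5' end from the 3' end of *Samd5* (kb), coloured by run. Most points above 10 kb sit at the upstream (left) side of the red and blue runs, and the 3 shortest loci, at 98, 102 and 109 bp, are spread along the gap.

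Spaces between neighbours ranged from 50 to 72376 bp and were mostly short. The median of the 109 spaces was 304 bp (173 to 728). Of them, 46 (42.2%) were at most 200 bp, and 72 (66.1%) were at most 1 kb and together took up 17.6 kb. The 6 spaces over 10 kb took up 153.2 kb of the 274.3 kb between the first and the last locus that was not covered. The widest lay between XLOC_005052 and XLOC_005097 (8960621 to 8961489), on the *Sash1* side. The next, 33936 bp, lay between XLOC_005226 (9287659 to 9287939) and XLOC_005234 (9321876 to 9322150) in the sparse stretch, and the one after it, 14010 bp, divided XLOC_005221 at the head of the run of 49 from XLOC_005223. The narrowest, 50 bp, lay between XLOC_005310 and XLOC_005311. Same-strand neighbours elsewhere in the list were also never closer than 50 bp unless they overlapped. Among spaces of at most 1 kb, the gap's median was 138 bp (n = 72) and that of the other loci 257 bp (n = 194), and 38.9% and 27.8% of these spaces were at most 100 bp.

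The identifiers of the assembly show how much of it the list takes up. XLOC numbers rose with position in all 1445 pairs of listed neighbours on the same chromosome and strand. On all 20 chromosomes the plus strand was numbered before the minus strand. A skipped number was therefore read as an assembled locus of that strand, between listed neighbours, that was not listed. Between the first and the last locus of the gap ran 270 numbers, of which 110 (40.7%) were listed and 160 were not analysed here. In the long runs 49 of 79 and 43 of 70 numbers were listed. The widest space, from XLOC_005052 to XLOC_005097, skipped 44 numbers. The space of 33936 bp in the sparse stretch skipped 7. By that reading, the stretches without listed loci held assembled loci on the same strand, whose reads were not examined. Of the 109 neighbouring pairs, 66 had consecutive numbers, with a median space of 128 bp and none above 2603 bp. The other 43 skipped at least 1 number, with a median space of 2206 bp and none below 498 bp. That these spaces were wider is partly fixed in advance, since by that reading each holds at least 1 unlisted locus.

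**Figure D4:**
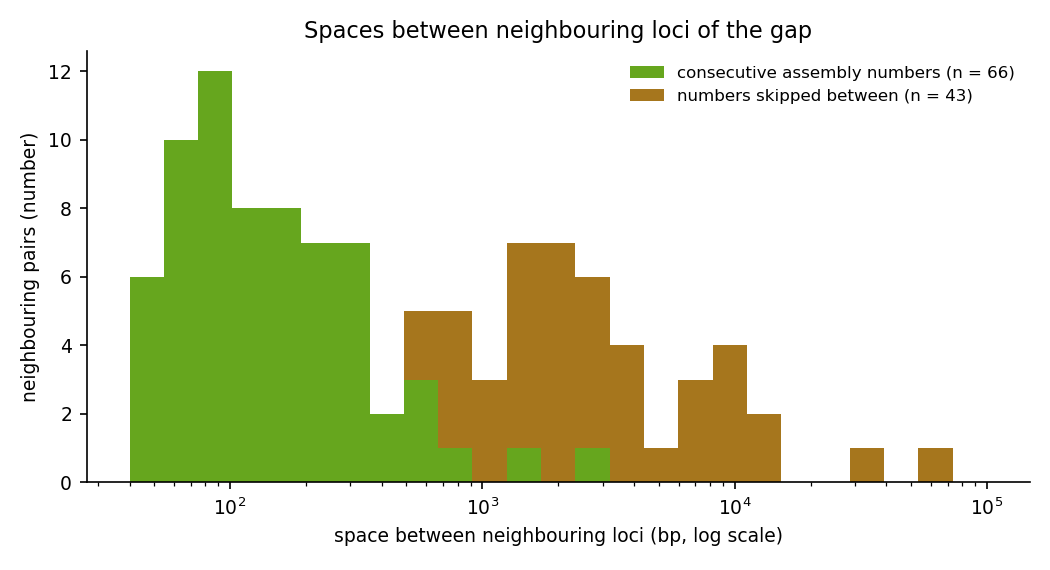
Stacked histogram of the 109 spaces between neighbouring loci (bp, log scale), by whether the loci had consecutive numbers in the assembly (green, 66 pairs) or skipped at least 1 number (brown, 43 pairs). The green bars peak near 100 bp and the brown bars above 1 kb, and the ranges meet between 498 and 2603 bp.

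Sequence conservation in the domain was low, with a median close to that elsewhere in the list, and narrow in range. The phastCons score of a locus is the mean over its bases of the probability of lying in a conserved element, from 0 to 1. All 110 loci had a score, with a median of 0.0866 (0.0688 to 0.107), quartiles of 0.0469 and 0.140, and a range of 0.00107 to 0.400. The 1154 scored loci elsewhere had a median of 0.0742 (0.0659 to 0.0827), quartiles of 0.0240 and 0.156, and reached 0.981. The medians were close, but the upper ends were not alike. In the gap, 10 loci exceeded 0.2 (9.09%) and 0 exceeded 0.5, while 207 (17.9%) and 78 (6.76%) of the others did. These shares and ranges were not matched for length: 14.5% of the loci in the gap were under 500 bp, against 74.3% of all loci elsewhere. The intervals of the medians take the loci as independent, which neighbours in a domain are not.

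XLOC_005125 had the highest score, 0.400, over 1087 bp at 8991834 to 8992920 in the run of 9 loci near *Sash1*. XLOC_005316 was the second, with 0.367 over only 147 bp at 9530610 to 9530756, and bordered the downstream side of the space that holds *Gm9930*. XLOC_005291 (0.292, 1860 bp, 9406052 to 9407911) and XLOC_005282 (0.279, 873 bp, 9391491 to 9392363) lay in the run of 43, and XLOC_005193 (0.277, 1651 bp, 9118051 to 9119701) in the run of 49. None of the 5 was among the longest loci. The lowest scores were those of very short loci, 0.00107 in XLOC_005213, 0.00559 in XLOC_005223 (130 bp, 9280470 to 9280599) and 0.00680 in XLOC_005237. The 5 longest loci sat between these extremes, from 0.0960 in XLOC_005320 to 0.135 in XLOC_005311.

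The score varied with length in the gap. Spearman's rho of score with length was 0.42 over the 110 loci, and a mean over many bases also moves less than one over few. The 16 loci under 500 bp had a median of 0.0304 (quartiles 0.0113 and 0.0579), against 0.0506 (0.0158 and 0.153) for the 826 scored loci of that length elsewhere. From 500 to 2000 bp the medians were 0.0814 (n = 38) and 0.110 (n = 148), from 2000 to 5000 bp 0.106 (n = 35) and 0.101 (n = 89), and from 5000 bp up 0.122 (n = 21) and 0.104 (n = 91). The medians of the gap were thus lower in the shorter classes and slightly higher in the longer ones, but the quartile ranges of gap and elsewhere overlapped in every class. Along the long runs, the median score was lowest in the downstream stretch, at 0.0489 in the run of 49 (0.126 upstream and 0.116 in the middle) and 0.0757 in the run of 43 (0.108 and 0.118). The median length was lowest there too, although the shortest locus of the run of 49, XLOC_005213 with 98 bp, lay in its upstream stretch.

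**Figure D5:**
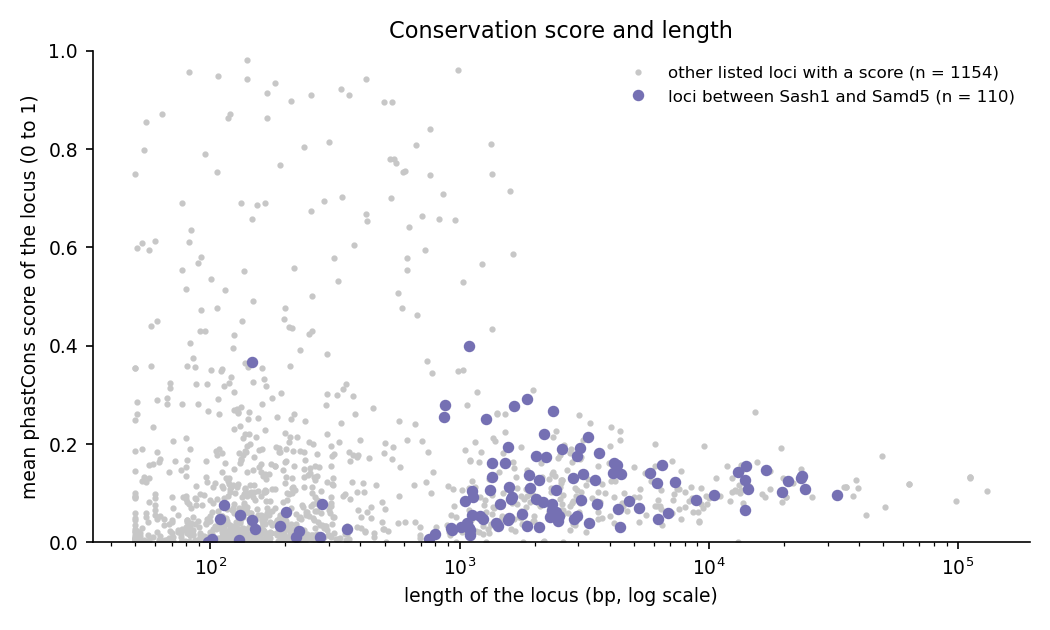
Mean phastCons score (0 to 1) against length (bp, log scale) for the 110 loci of the gap (purple) and the 1154 other scored loci (grey). All purple points lie at or below 0.400, and grey points reach 0.981 among short loci.

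Few loci met an annotated noncoding gene on their own strand. The bodies of GENCODE noncoding genes took up 2.55% of the gap on the minus strand and 16.3% on the plus strand. The table itself tied 1 of the 110 loci to an annotated gene (0.909%, 95% Wilson interval 0.161% to 4.97%), naming RP24-125F23.1 for XLOC_005309, against 201 of 1379 elsewhere (14.6%). In GENCODE M21, 7 loci (6.36%) touched a noncoding gene on their own strand, 20 (18.2%) touched one on the opposite strand and 26 (23.6%) touched one on either. Of the 1379 loci elsewhere, 313 (22.7%) touched one on their own strand and 358 (25.96%) on either, so the shares were far apart for the same strand and close for either strand. The share on either strand rests largely on 1 plus-strand gene, *Gm48749*, which 15 of the 26 loci touched. Loci of the gap were also longer (median 2030.5 against 181 bp), and contact was not adjusted for length. None of the 110 loci touched a coding gene in GENCODE, which follows from the bounds, as these are the GENCODE edges of *Sash1* and *Samd5*.

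GENCODE listed 7 noncoding genes on the minus strand of the gap, and 6 of them met a listed locus. 5 of the 7 were of the class TEC, single-exon models still awaiting experimental evidence. *Gm48751* (9482929 to 9487202, 4274 bp) lay wholly in XLOC_005309, *Gm48755* (9546246 to 9547521, 1276 bp) in XLOC_005319 and *Gm48744* (9223971 to 9224751, 781 bp) in XLOC_005219. Each of these models was shorter than the locus around it. *Gm48743* (9069419 to 9071475, 2057 bp) was shared by XLOC_005168 and XLOC_005169, which held 97.5% of it, and the remaining 51 bases are those shown in capitals above. A single annotated transcript was thus divided over a pair of listed loci. *Gm9930* (9532531 to 9535681, 3151 bp) was the exception, with 0% of its bases in a listed locus. It lay in the space between XLOC_005316 and XLOC_005319, 1774 and 2815 bp from them. *Gm48748* (9329851 to 9336618), a lincRNA of 5 exons, met XLOC_005239 in an intron only, and the processed pseudogene *Gm48758* (9587602 to 9588114) lay in XLOC_005320.

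On the plus strand, opposite to the loci, GENCODE had 8 noncoding genes, of which 6 were crossed by a listed locus. The longest, the lincRNA *Gm48749* (9336682 to 9395259, 58578 bp), ran against 15 loci of the run of 43, and 49.9% of its body lay inside them but 0% of its exon bases. *Gm48728* (8951949 to 8967244) ran against XLOC_005097 and XLOC_005098, likewise with no exon base covered. *Gm48757* (9566376 to 9567605, in XLOC_005320) and *Gm48759* (9596472 to 9599423, in XLOC_005321) were covered along their full lengths, exons included, as were the processed pseudogenes *Gm48750* (9356155 to 9356532, in XLOC_005261) and *Gm48753* (9513937 to 9514106, in XLOC_005311). *Gm48727* (8903981 to 8945137) and *Gm26674*, which overlaps the 5' end of *Sash1* in antisense, met none.

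The outline of *Samd5* itself differed between annotations, and both the run of 43 and the sparse stretch fall within that difference. GENCODE M21 places *Samd5* at 9622936 to 9675208 (52.3 kb). RefSeq on GRCm38.p6 gives it a span of 413.5 kb, from 9262461 to 9675926, which reaches 360.5 kb further downstream. That span holds 49 loci whole (44.5%), namely the run of 43, the run of 4 and the run of 2, with 227.6 kb of the covered length. Its downstream end falls inside XLOC_005221 (4455 bp, 9262005 to 9266459), the most upstream locus of the run of 49, which has 3999 bases inside the span and 456 outside. The upstream edge of the run of 49 thus lies within a locus length of the end of the RefSeq gene. RefSeq also draws *Sash1* longer on its upstream side, by 59.5 kb, which takes in XLOC_005052 alone. Where the exons of the longer *Samd5* models lie was not analysed here, so whether listed loci meet them is not known. Among RefSeq noncoding genes, *Gm51794* (9008764 to 9028182, plus strand) touched 5 loci and a longer model of *Gm48750* (9350979 to 9356555, plus strand) touched 2.

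The remaining columns of the table were empty or alike for most loci of the gap. None of the 110 carried the mark for transcription from both strands (0%, Wilson interval up to 3.37%), while 348 of 1379 elsewhere did (25.2%). None had an entry in the column of linked genes, headed as nearest genes that went down, whereas 384 elsewhere did (27.8%). That column was taken as given. An empty cell was not read as a lack of *Tbx5*-dependent genes nearby, since the authors kept ncRNAs near such a gene. As neighbours, the table named *Sash1* and *Gm9930* for 99 loci, both of them and *Samd5* for 8, and *Gm9930* and *Samd5* for 3. *Sash1* was thus a neighbour of 107 loci and *Samd5* of 11, although the run of 43 lies beside *Samd5*. Of 17 genes in a list of SAM domain adaptors and scaffolds, 6 were neighbours of any listed locus (*Sash1*, *Samd5*, *Samsn1*, *Samd4*, *Samd9l* and *Samd14*) and 0 were linked. Of 21924 coding gene symbols in GENCODE, 3685 were neighbours (16.8%) and 216 linked (0.985%). *Sash1* and *Samd5* define the gap and could not be absent, and the other 4 were each a neighbour of 1 locus. Of 11 coding genes in and around the region, *Sash1* and *Samd5* were neighbours and 0 were linked. The next coding genes outward, *Ust* beyond *Sash1* and *Stxbp5* beyond *Samd5*, were neither.

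Values were also taken by the same rules from 3 other gaps with many loci on a single strand, which were picked from earlier results and not by a ranking of likeness. The gap between *Ttc32* and *Osr1* on chromosome 12 held 29 loci, all plus, that covered 39.7% of 528.1 kb. Their median length was 4558 bp, the longest measured 35478 bp and the median score was 0.0942, so single loci there also reached over 10 kb. XLOC_010925 and XLOC_010926 there are the same interval of 35478 bp, and each was counted as a locus. The rho of length with distance downstream was 0.15 in its largest run (n = 23), against -0.37 in the long runs between *Sash1* and *Samd5*. The gap between *Edn1* and *Phactr1* on chromosome 13 held 26 loci, all plus, that covered 2.32% of 372.6 kb, with a median of 268.5 bp, none above 1093 bp and a rho of -0.0010 (n = 26). The gap between *Bcl2l11* and *Spdye4c* on chromosome 2 held 27 loci, all minus, that covered 35.3% of 428.7 kb. Their median was 249 bp, but the longest reached 130850 bp, and rho was -0.49 in the largest run (n = 20). There 26 of 27 loci had an annotated gene in the table and all 27 a linked gene, compared with 1 and 0 of 110 between *Sash1* and *Samd5*. None of the 4 gaps had a locus marked as transcribed from both strands. These values were set side by side with no test.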

How the data were processed

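The authors sequenced non-polyadenylated left atrial RNA from 3 control and 4 *Tbx5* knockout libraries, aligned reads to mm10 with TopHat2 (2.0.13 and 2.0.10 in the submitters' processing notes), assembled loci with Cufflinks, counted reads with featureCounts and tested genotypes with DESeq. They kept changed ncRNAs away from coding start sites and near a *Tbx5*-dependent coding gene. The deposited table had 1490 rows, and 1 emptied row was left out. A second, identical copy was not used. Deposited conservation values are mean phastCons scores, each a fraction from 0 to 1. The column of linked genes was used only for presence, since it holds the authors' own comparison. Depth per library is unknown for these loci, and the planned edgeR test was not run because no levels were analysed.

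Deposited starts count from 0 (1 had to be added for 8 starts to fall on GENCODE gene starts, and none fell there as given), so 1 was added to each. Runs joined same-strand loci up to 10 kb apart. Length is genomic span, with any introns. Named loci were the first, last, 5 longest, 3 shortest, 5 most and 3 least conserved, those beside the 3 widest spaces and those with annotation; others named were chosen after their values were seen. Members, lists and rules were chosen with earlier results of these data known. Intervals are 95%, take loci as independent, which neighbours are not, and cover counting error only. Python 3.11.15, pandas 2.3.3 and scipy 1.17.1 were used. Only the number of runs, the covered length and the median space were tested on 200 simulated lists.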

Additional observations from a re-analysis of the deposited data

How the results depend on the processing

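Of 16 alternatives for 7 results, 7 left the value within its limits and 9 moved it. The 110 loci with GENCODE bounds, touching loci or unique intervals and the 453.0 kb of summed spans were fixed in advance, as the bounds are the GENCODE edges and no loci overlap, and say nothing of stability. RefSeq gene bounds, chosen after seeing the data, left 59 loci. The 7 runs became 38 when joined at 1 kb, 13 at 5 kb and 2 at 50 kb. Merging loci up to 1 kb apart raised the median length to 2782.5 bp and the median space to 3107 bp. The median length was 1894 bp without the 5 longest loci and 2197 bp without those under 200 bp. Weighting conservation by length gave a mean of 0.114. The annotated share was 6.36% for GENCODE on the same strand and 23.6% on either. The planned values for repeats, GC content, T-box motifs and poly(A) signals were not run, since no genome sequence was used here. No paired analysis was possible because no result comes from levels per library.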
